A study of Mus musculus with 2 samples.

Results

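The genes that encode the proteins of the cytosolic ribosome, together with their annotated paralogs, were followed in total RNA of the hippocampus of 2 male mice. They were chosen by name among genes with a protein-coding transcript (Rpl or Rps with a number, Rplp0 to Rplp2 and Rpsa, with the endings a, x, l, l1 or al), which gave 83 of 55536 annotated genes, 52 named for the large subunit and 31 for the small one. The name rule leaves out some genes that also give ribosomal proteins, among them Rps3a1, Fau and Rack1, which are described apart. It leaves out Rps4l too, which the annotation lists as a transcribed processed pseudogene. Both animals were B6CASTF1/J, F1 offspring of the strains C57BL/6J and CAST/EiJ, aged 8 to 10 months. No treatment or allele separates them. They form 1 group, with replicate 1 from animal 2 and replicate 2 from animal 4. Each animal gave 1 strand-keeping library, reduced in ribosomal RNA and with ERCC spike-ins, from 300 ng of RNA. The labels name the tissue as a layer of hippocampus and give both animals the same donor entry. The labels name no comparison, so the questions are how the members stand to each other, how far 2 ways of counting the same reads agree on them, and how far the libraries differ.

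A ribosome carries rRNA and a set of proteins that are each needed in about equal number, most of them made from a single gene. Their mRNAs are among the most abundant short messages of a cell, and most start with a run of pyrimidines (the TOP motif), through which mTOR signalling and the RNA-binding protein Larp1 adjust their translation. In neurons, ribosomal protein mRNAs are found in dendrites and axons as well as in the cell body. Because these mRNAs are short and abundant, reverse transcription has copied many of them back into the genome, so that ribosomal protein genes have more processed pseudogenes than almost any other family.

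The members had 551 near-identical copies in GENCODE M21. A copy was a gene with a transcript matching at least 80% of a member's longest annotated coding sequence, on the same strand at 95% identity or more. Of these, 518 are annotated as processed pseudogenes, 15 as transcribed processed pseudogenes, 17 as protein-coding and 1 as a processed transcript. At least 1 copy was found for 74 members. Rpl21 had the most, with 57. The other 9 had none by this rule, among them Rpl41 and Rps27l. For Rpl41 and Rps19 the longest annotated coding sequence, of 138 and 636 bases, was not held whole by the transcript with the most TPM. Copies of those transcripts could therefore be missed. A total of 28 copies were identical to their member over the whole match, and 4 overlapped their member in the genome.

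Rpl27 (large subunit; mm10 chr11:101442298-101445529, plus strand) and Rpl36a (large subunit; chrX:134585654-134588062, plus strand) are shown as members that have copies of identical coding sequence and that are described with those copies further on. The first 60 coding bases of Rpl27 stand beside those of Gm11518 (chr11:94037218-94037628, minus strand), Rpl27-ps1 (chr1:171305087-171305494, minus strand) and Gm6341 (chr7:101154645-101155055, minus strand), 3 processed pseudogenes. Capitals mark bases that differ from the member, and all coding sequences are from GENCODE M21.
Rpl27: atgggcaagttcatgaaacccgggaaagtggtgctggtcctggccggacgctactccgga
Gm11518: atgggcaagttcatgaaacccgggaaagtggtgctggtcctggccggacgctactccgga
Rpl27-ps1: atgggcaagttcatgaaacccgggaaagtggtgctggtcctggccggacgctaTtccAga
Gm6341: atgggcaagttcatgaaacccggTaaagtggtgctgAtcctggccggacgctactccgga
Over all 408 coding bases Gm11518 had 0 differences from Rpl27, Rpl27-ps1 had 5 and Gm6341 had 6.

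Coding bases 115 to 174 of Rpl36a stand beside those of its processed pseudogene Rpl36a-ps2 (chr3:145879020-145879340, plus strand) and of its paralog Rpl36al (chr12:69182731-69184083, minus strand), a gene of its own that codes for a closely related protein.
Rpl36a: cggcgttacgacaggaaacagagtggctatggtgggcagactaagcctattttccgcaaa
Rpl36a-ps2: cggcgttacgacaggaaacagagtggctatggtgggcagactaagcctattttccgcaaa
Rpl36al: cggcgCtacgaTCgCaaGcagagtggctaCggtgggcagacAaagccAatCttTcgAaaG
Over 318 coding bases the pseudogene had 0 differences from Rpl36a, and Rpl36al had 39, an identity of 87.7%. The annotated pseudogene is thus nearer in sequence to Rpl36a than the paralog is.

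Each library was deposited with values from 2 quantifiers, programs that divide reads among transcripts that share sequence. The first worked from a transcriptome alignment and its gene table is used for levels, and the second worked from the read files. Levels are in TPM, abundances per transcript length scaled to the same total in each library. The depth was 23458117 and 29584307 expected counts in replicates 1 and 2. The members took 123434 of these in replicate 1, which is 0.526% (95% Wilson interval 0.523 to 0.529%), and 176728 in replicate 2, which is 0.597% (0.595 to 0.600%). Such intervals cover counting error only. The summed level of the members was 16317 TPM in replicate 1 and 17372 TPM in replicate 2. The 7 listed genes of hippocampal excitatory neurons had mean levels between 33.1 and 1496 TPM. No other tissue was compared, so these levels do not tell hippocampus from other brain tissue.

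Nearly all members were well above detection. By either quantifier 80 of 83 had a mean of 1 TPM or more, and the 3 below were the paralogs Rpl3l, Rpl39l and Rpl10l. Among the 80, the first quantifier gave a median of 190 TPM, a lowest value of 13.5 and a highest of 690. The medians were 166 TPM over 49 large subunit genes and 209 TPM over 31 small subunit genes. By the second quantifier that order turned, with 195 TPM for the large and 191 TPM for the small subunit.

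**Figure D1:**
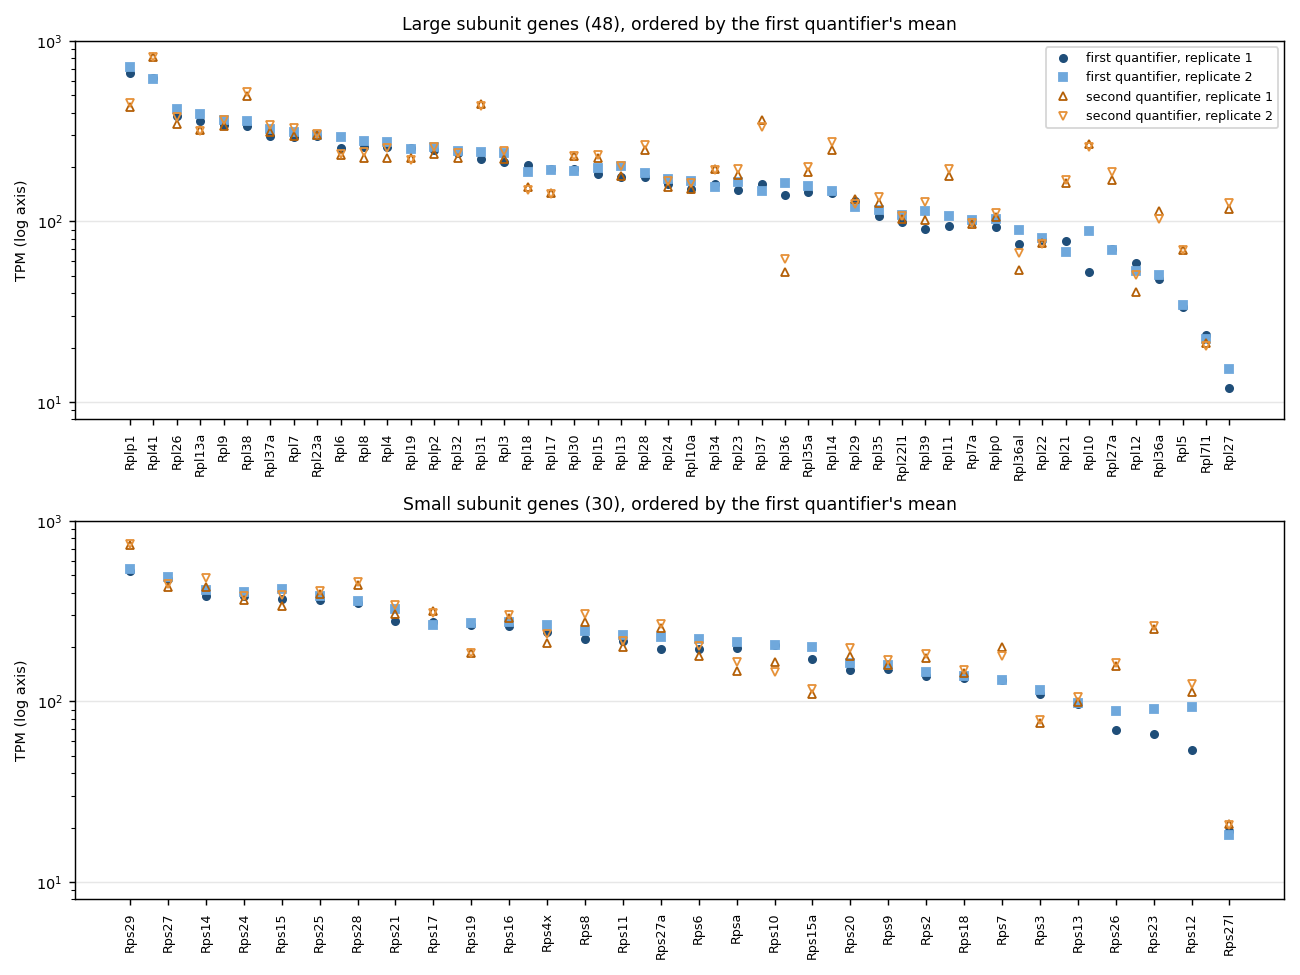
TPM (log axis) of 78 of the 80 ribosomal protein genes at 1 TPM or more (2 are not plotted), large subunit above and small subunit below, with 1 point per library and quantifier. The libraries lie close together for most genes, while the quantifiers part most for Rpl27, which the first places lowest at a mean of 13.5 TPM and the second at 122 TPM.

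The highest level by the first quantifier belonged to Rplp1, a protein of the stalk that recruits elongation factors, with 665 TPM in replicate 1 and 714 TPM in replicate 2 (690 ± 34.4, SD, n = 2). Rpl41, which codes for the smallest ribosomal protein, had 619 and 611 TPM (615 ± 5.37). Rps29, a zinc-binding protein of the small subunit, had 528 and 542 TPM (535 ± 10.2). These levels did not overlap between any of the 3 genes. Rps27 followed at 477 and 489 TPM and Rpl26, a protein near the exit of the nascent chain, at 383 and 419 TPM. Rpl26 overlapped in its range with the next members in the order, Rps14 (385 and 415 TPM) and Rps24 (385 and 405 TPM).

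The second quantifier set Rpl41 first at 810 and 813 TPM and Rps29 next at 738 and 747 TPM. It placed Rplp1 at rank 7, with 428 and 450 TPM. Of the 10 highest members by the first quantifier, 7 were among the 10 highest by the second. The other stalk genes were lower than Rplp1 by both. Rplp2 had 247 and 258 TPM by the first and 235 and 258 TPM by the second quantifier. Rplp0, the base of the stalk to which both P proteins bind, had 92.6 and 102 TPM by the first and 106 and 111 TPM by the second.

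Members with a known role beside the ribosome lay within the same range. Rps27a, made as a fusion with ubiquitin, had 195 and 228 TPM by the first quantifier. Rps6, the substrate of the S6 kinases, had 196 and 222 TPM. Rpsa, also known as a laminin receptor, had 197 and 213 TPM. Rpl5 and Rpl11, which bind 5S rRNA and inhibit Mdm2, stood at 33.4 and 34.6 TPM and at 94.8 and 108 TPM by the first quantifier. For this pair the second quantifier gave 69.1 and 69.8 TPM for Rpl5 and 179 and 195 TPM for Rpl11. Rpl5 was under Rpl11 by both.

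The 5 lowest of the 83 genes by the first quantifier had means of 18.7 TPM or less. Rpl10l was listed at 0 in both libraries by both quantifiers, which allows up to 3 counts a library. Rpl39l had no count in replicate 1 and 1 count in replicate 2 (0.12 TPM), and Rpl3l had 5 and 3 counts (0.38 and 0.17 TPM). These are known as testis-expressed or striated-muscle-expressed paralogs. Rpl27, which is no paralog, came next at 11.9 and 15.1 TPM. Rps27l had 19.0 and 18.3 TPM.

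The low place of Rpl27 was not shared by the second quantifier, which gave 118 and 127 TPM for the same libraries. In replicate 1 the first quantifier counted 89.4 reads on Rpl27 and 379 on each of Gm11518 and Rpl27-ps3, a pair of copies with no base different from it. The second counted 805 reads on Rpl27 and 27.9 on each of that pair. In replicate 2 the counts on Rpl27 were 155 and 1171. Summed with its 7 copies, Rpl27 had 849 counts by the first and 861 by the second quantifier in replicate 1, and 1231 and 1252 in replicate 2. The summed counts lay close to each other while the counts on the gene did not.

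A member was counted as discordant when its TPM by the quantifiers differed 2-fold or more in the same direction in both libraries. By the second quantifier 8 of 80 members (10.0%) were higher and 1 was lower (1.25%). Over all 17335 genes at 1 TPM or more the shares were 6.1% higher and 2.73% lower. Against this background the members' share of higher genes was not far above and their share of lower genes was below. Over the 13632 protein-coding genes alone, a set chosen after the data were seen, the shares were 1.6% higher and 0.308% lower. Both of the members' shares were above these, the lower one resting on 1 gene. The reading thus depends on the background, and all members have a protein-coding transcript. The median log2 ratio over the members was 0.06 in replicate 1 and 0.08 in replicate 2, against -0.12 and -0.14 over all genes.

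Rpl10, a protein that joins the large subunit last in its maturation, had the next largest ratio after Rpl27. It had 52.3 and 88.0 TPM by the first quantifier and 268 and 258 TPM by the second, a mean log2 ratio of 1.95. Its copy Rpl10-ps3 (chr9:50344201-50344968, minus strand) is a gene named as a pseudogene, annotated as protein-coding and identical to Rpl10 over its 642 coding bases. The first quantifier gave it 2369 and 2629 counts and the second gave it 0 in both libraries. Rpl10 itself held 17.0% and 30.9% of the counts of its family by the first quantifier and 99.8% in both libraries by the second.

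Rps23, which lies at the decoding centre, had 66.3 and 90.2 TPM against 250 and 261 TPM, a log2 ratio of 1.73. Its copy Rps23-ps1, identical over the match, held 1843 and 2452 counts by the first quantifier and 371 and 525 by the second. For Rpl36a, 47.8 and 50.2 TPM stood against 113 and 103 TPM (log2 1.14), and Rpl36a-ps2 held 297 and 400 counts against 16.2 and 72.9. Both members were higher by the second quantifier in both libraries, and their copies lower.

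The remaining discordant members with a higher second value were Rpl27a (log2 1.35), Rpl21 (1.20), Rpl37 (1.18) and Rpl5 (1.03). Rps26 had the same mean ratio of 1.03 but was under 2-fold in replicate 2 (88.1 and 164 TPM). For Rpl37 the copy was Rpl37rt, an expressed retrogene, with 1330 and 1829 counts by the first and 823 and 1122 by the second quantifier. For Rpl5 it was Gm15500, with 1899 and 2679 counts against 1551 and 2212. By both quantifiers Gm15500 held more counts than Rpl5 itself.

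Rpl36 was the member that went the other way. It had 141 and 163 TPM by the first quantifier and 52.7 and 62.1 TPM by the second, a log2 ratio of -1.41. Its counts were 561 and 879 by the first and 138 and 219 by the second quantifier. With its 7 copies they were 653 and 986 against 228 and 323, so the gap was there in the sum as well. Rplp1 was of the same kind and smaller in size, with a log2 ratio of counts of -0.91 on the gene and -0.79 with its copies.

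**Figure D2:**
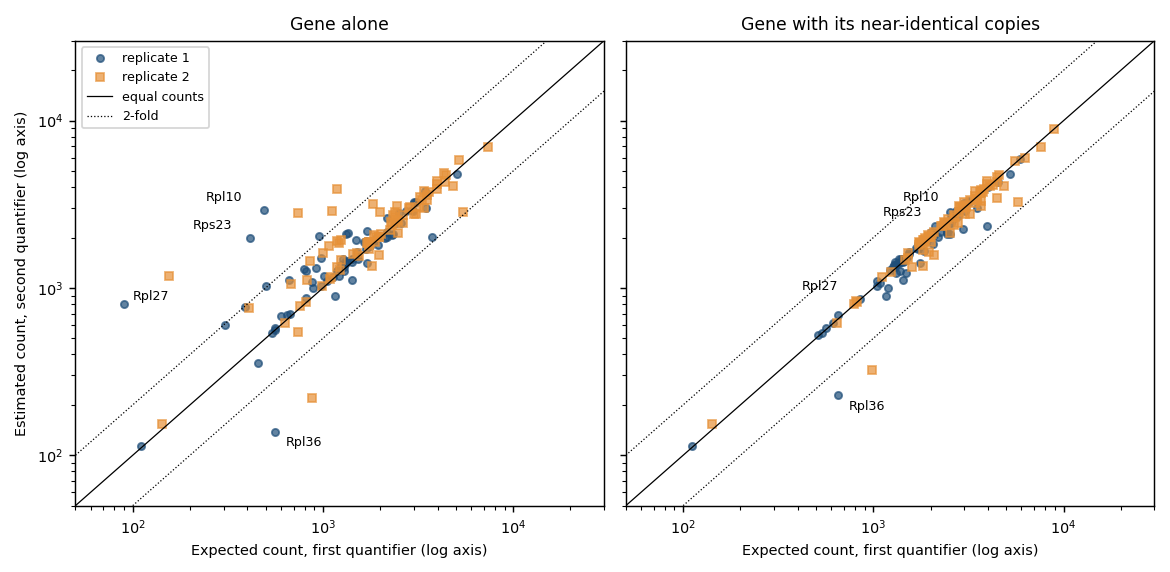
Counts by the second quantifier against those by the first (both axes log) for the 80 genes in each library, the gene alone on the left and summed with its near-identical copies on the right; the lines mark equality and 2-fold. Rpl10, Rps23 and Rpl27 lie above the 2-fold line alone and near equality when summed, and Rpl36 stays below it.

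Summing copies brought the quantifiers together for many members, though not for all. The log2 ratio of counts moved from 0.06 to -0.38 for Rpl13 and from 0.17 to -0.26 for Rpl34. It also grew in size for others, such as Rpl26 (-0.17 to -0.27). On counts, 57 members in replicate 1 and 59 in replicate 2 were within 1.2-fold alone, and 72 and 73 were when each was summed with its copies. The number at 2-fold or more in both libraries was 5 on the gene's own counts and 1, Rpl36, on summed counts. The copies held 23.1% and 22.2% of the summed counts by the first quantifier and 13.5% and 13.3% by the second. Copies held more counts than the member in both libraries for 13 members by the first quantifier and for 5 by the second, namely Rpl5, Rpl12, Rpl35, Rps2 and Rps7. In 5 cases the copy lies inside a transcript over 3 times as long as the match, as in BC004004 for Rpl21, and reads from the rest of that transcript enter the sum. Without those 5 the copies' share was 22.6% and 21.8% by the first quantifier, and Rpl36 was again the only member past 2-fold.

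All 9 discordant members had at least 1 copy. Among the 7 members at 1 TPM or more without a copy, 0 were discordant. Over all members 11.25% were discordant and most members had copies, so a group of 7 is too small to show a difference. A link to copy number was not tested. The group without a copy includes Rpl41 and Rps19, for which copies could be missed. Of 37 members with 1 to 5 copies 3 were, and of 36 with 6 or more copies 6 were. The median size of the log2 count ratio was 0.07, 0.09 and 0.18 in these groups. For the log2 TPM ratio, on which discordance was called, it was 0.24, 0.19 and 0.32, with no steady rise. Counts were whole numbers, within 0.05, for 5 of the 73 members with copies by the first quantifier in both libraries. For the sums with copies this number was 54. By the second quantifier it was 14 alone and 41 summed.

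Not all of the TPM ratio lay in the counts. The TPM ratio less the count ratio, which holds the effective length and the scaling, ran from -0.89 for Rps15a to 0.77 for Rpl27a on the log2 scale with a median of 0.01. Rps15a had 171 and 201 TPM by the first quantifier and 110 and 117 TPM by the second, although its count ratio was 0.19. For Rps29 the TPM ratio was 0.47 and the count ratio -0.11.

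The members stood closer to each other once copies were added. The 90th percentile of the first quantifier's TPM was 5.23 times the 10th for genes alone and 2.98 times for genes with their copies. The SD of log2 TPM over the 80 members was 1.08 alone and 0.85 with copies by the first quantifier, and 0.96 and 0.89 by the second. With copies the median was 269 TPM by the first quantifier and 246 TPM by the second.

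Paralog pairs fell into 3 kinds. In the first, the paralog was at or near 0, as given above for Rpl3l, Rpl10l and Rpl39l, whose partners Rpl3, Rpl10 and Rpl39 had 212 and 240, 52.3 and 88.0, and 90.3 and 114 TPM. In the second, the paralog was a small part of the pair. Rpl7l1, linked to ribosome assembly, had 23.4 and 22.2 TPM against 292 and 313 TPM of Rpl7, a share of 7.01% ± 0.550 (SD, n = 2). Rps27l, known as a target of p53, had 3.72% ± 0.167 of the pair with Rps27. The second quantifier gave 6.29% and 4.51% for these pairs.

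In the third kind the paralog was above its partner by the first quantifier. Rpl22l1 (chr3:28805436-28807424, plus strand) had 99.3 and 109 TPM, above the 79.0 and 80.8 TPM of Rpl22 (chr4:152325742-152334071, plus strand) in both libraries. Its share of the pair was 56.5% ± 1.20 by the first quantifier and 58.2% ± 0.952 by the second. The deposited TPM bounds of these genes did not overlap in either library. On counts, which are not divided by length, Rpl22l1 held 34.9% of the pair in each library. The order also depended on the transcripts taken. The first quantifier put 86.5 and 94.2 TPM on Rpl22l1-209, a processed transcript of 473 bases that does not hold the whole coding sequence. On transcripts classed as protein-coding alone, a choice made after the data were seen, it gave 9.04 and 9.27 TPM for Rpl22l1 and 73.7 and 76.9 TPM for Rpl22, so that the order turned. The second quantifier gave 58.9 and 67.8 TPM for Rpl22l1 and 35.9 and 26.8 TPM for Rpl22 on the same class, where Rpl22l1 stayed above. That class leaves out Rpl22-205, a processed transcript that holds a whole annotated coding sequence of Rpl22. The second quantifier gave Rpl22-205 34.7 and 43.8 TPM, so its order of the pair also depends on whether this transcript is taken. Coding bases 175 to 234 of Rpl22 are printed beside those of Rpl22l1 to set this pair against the identical copies above.
Rpl22: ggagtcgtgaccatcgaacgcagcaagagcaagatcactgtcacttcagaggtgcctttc
Rpl22l1: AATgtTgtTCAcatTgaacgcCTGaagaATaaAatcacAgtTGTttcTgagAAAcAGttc
Of these 60 bases 24 differed.

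The order of Rpl36a and Rpl36al turned with the quantifier. By the first, Rpl36al had 75.1 and 89.4 TPM and was above Rpl36a, with 62.6% ± 2.05 of the pair. By the second, it had 53.8 and 66.9 TPM and was below Rpl36a, with 35.8% ± 5.09. The identical pseudogene shown above is the feature whose counts moved for Rpl36a. For Rpl36al, its 2 copies, a readthrough gene that overlaps it (Gm49383) and the pseudogene Rpl36a-ps3, together held 50.8 and 49.99 counts by the first quantifier and 166 and 257 by the second.

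**Figure D3:**
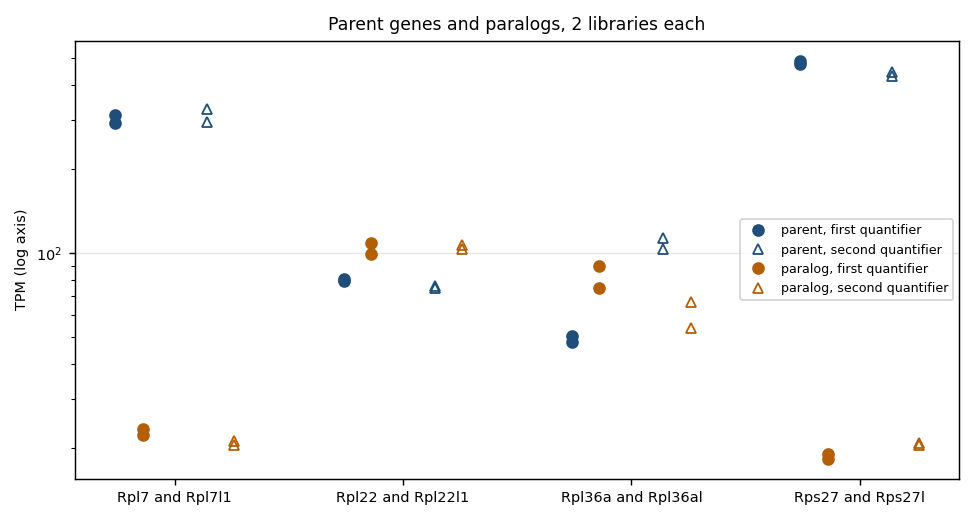
TPM (log axis) of 4 parent genes (blue) and their paralogs (brown) in each library, filled circles for the first quantifier and open triangles for the second. On all transcripts Rpl22l1 is above Rpl22 by both, and Rpl36al is above Rpl36a by the first and below it by the second.

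Part of the members' TPM was assigned to transcripts that the annotation does not class as protein-coding. Such transcripts numbered 266 of 500 and took 18.7% and 17.6% of the members' TPM in replicates 1 and 2 by the first quantifier, and 27.3% and 26.6% by the second. Transcripts classed as retained introns took 9.76% and 9.07% by the first. Transcripts outside the coding class held over 50% of the gene's TPM for 15 members by the first quantifier, 19 by the second and 10 by both. The same shares over all genes are not given here, so these values do not set the members apart from other genes.

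The highest such shares by the first quantifier were those of Rps16 (98.4% and 98.9%), Rpl35 (97.4% and 97.3%), Rps18 (99.4% and 93.9%), Rps20 (95.2% and 95.7%) and Rpl12 (mean 92.5%). For Rpl12 the second quantifier gave 38.1% and 44.6%, and for the others between 81.9% and 98.2%. The leading transcripts were short and held most of the coding sequence. Rpl35-203, classed as a processed transcript, is 541 bases long and carries 367 of the 369 coding bases in 1 stretch, whereas the only transcript of Rpl35 classed as coding is 946 bases long. Rps20-201, classed as a retained intron, carries 355 of 357 coding bases in 582 bases, and the only coding-class transcript of Rps20 has 3706 bases. Rps16-203 (518 bases) carries 392 of 438 and Rpl12-201 (729 bases) 459 of 495 coding bases.

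For Rps18 the quantifiers chose different transcripts. The first put 122 and 121 TPM on Rps18-210, a 499-base transcript with 356 of 456 coding bases in 1 stretch, and the second put 0 on it in both libraries. Of all 266 transcripts outside the coding class, 5 held a whole annotated coding sequence at least 80% as long as the gene's longest. Shorter complete coding sequences were not counted. The 5 took 4.25% and 5.94% of that class's TPM by the first quantifier. The share of Rpl22l1 in this class was 90.9% and 91.5% by the first quantifier and 43.0% and 36.5% by the second.

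The start-site sequence was looked up because the TOP motif is the feature that ribosomal protein mRNAs are known to share. RefSeq start windows on GRCm38.p6 were matched for 63 of the 83 members. A run of 6 or more bases, each C or T, lay within 20 bases of the start on the gene's strand in 43 of the 63 (68.3%), and in 41.2% of 27025 genes with a window of the same length. On the opposite strand the shares were 19.0% and 43.8%. Windows of 30 bases centred on the annotated start are printed for 4 members, with such runs in capitals. The locations are chr3:90213634-90213663 (minus strand) for Rps27, chr14:24490663-24490692 (plus) for Rps24, chr3:28805493-28805522 (plus) for Rpl22l1 and chr11:101442230-101442259 (plus) for Rpl27.
Rps27: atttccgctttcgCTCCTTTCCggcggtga
Rps24: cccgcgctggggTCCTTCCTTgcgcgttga
Rpl22l1: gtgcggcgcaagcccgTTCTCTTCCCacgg
Rpl27: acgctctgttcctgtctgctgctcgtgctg
RefSeq has a second start window for Rps24, at chr14:24490738-24490767 (plus), which holds no such run.
Rps24, second window: tccggcgccgtagccatcatggtgagtctc
The window of Rpl27 holds no such run either, and its RefSeq start lies before the start of the gene in GENCODE M21. A match describes these letters and not a used start.

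The libraries were then compared with edgeR on the first quantifier's counts, a test that sets 2 animals against each other and no condition. Of 80 members tested, 1 was called, against 0.806% of all 16123 genes tested. That member was Rpl10, with 20.7 CPM (counts relative to the library's scaled total) in replicate 1 and 40.3 CPM in replicate 2, a log2 ratio of 0.96 (edgeR adjusted p = 0.0159). It was not called with the second quantifier (log2 0.16, edgeR adjusted p = 1.00) or when summed with its copies (log2 0.10, adjusted p = 1.00). The first quantifier's count on Rpl10 was 488 in replicate 1 and 1178 in replicate 2, while that on Rpl10-ps3 went from 2369 to 2629. Rps12 had a log2 ratio of 0.77 that missed the threshold (edgeR adjusted p = 0.298) and one of 0.08 with its 22 copies.

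The members lay to the side of replicate 2 as a group. The log2 ratio was above 0 for 76 of 80 members, with a median of 0.21 and a middle range of 0.13 to 0.25 (25th to 75th percentile). Over all genes tested, 49.8% were above 0 and the median was 0.00. The medians were 0.22 for the large and 0.19 for the small subunit. The 4 members below 0 were Rpl12, Rpl21, Rpl37 and Rpl7l1, with log2 ratios between -0.14 and -0.04. With the second quantifier 79 of 80 were above 0, at a median of 0.24. The SD over the members was 0.16. Of 5085 genes of like level (24.8 to 130 CPM, the 10th to 90th percentile of the members), a set chosen after the data were seen, 54.0% were above 0, with a median of 0.02.

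Scaled to the spike-ins, all genes moved down by 0.23 at the median, and the members' median turned to -0.02 with 30 of 80 above 0. Relative to the median of all genes the members were 0.21 higher under both scalings, and 76 of 80 were above it. Each scaling applies a single factor per library to all genes, so this distance could hardly differ and is no separate check. The libraries also differed in a set of choroid plexus genes, whose summed level was 17.9 TPM in replicate 1 and 1792 TPM in replicate 2. All 9 were higher in replicate 2, and 8 of them passed the edgeR test. None of the 9 was at 0 in both libraries. Transthyretin (Ttr), the main secreted protein of that tissue, had 8.68 and 1703 TPM. Of the markers of 6 other cell types none passed the edgeR test. All 5 red blood cell genes were below 0 (median -0.32), and their summed level was 465 and 334 TPM. Above 0 were 4 of 4 oligodendrocyte genes (median 0.17), 4 of 5 microglial genes (0.19), 3 of 4 astrocyte genes (0.10), 2 of 4 endothelial genes (0.05) and 5 of 7 genes of excitatory neurons (0.03). The part of any of these cell types in the members' shift was not tested. In bulk tissue, fewer cells of a type and less RNA per cell cannot be told apart.

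**Figure D4:**
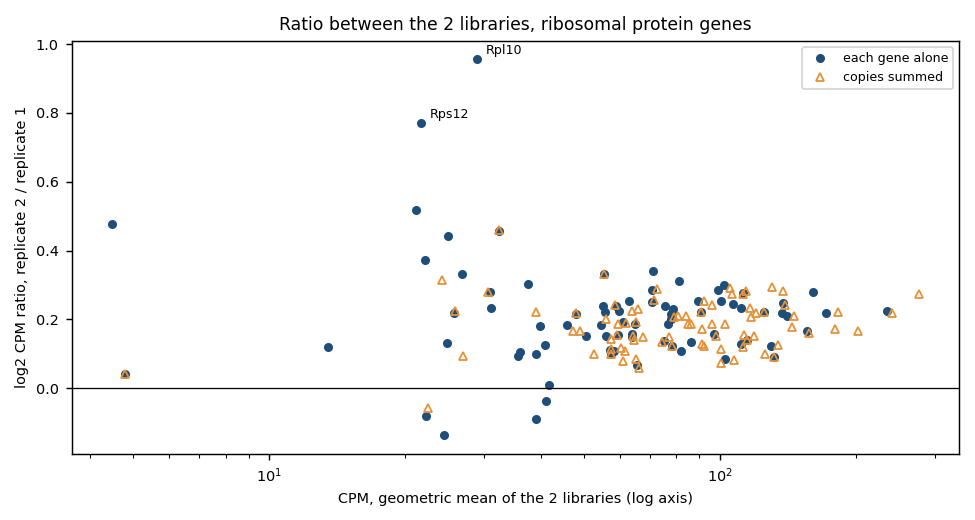
Log2 ratio of CPM, replicate 2 over replicate 1, against CPM (log axis) for each of the 80 tested genes alone (circles) and summed with near-identical copies (triangles). Most points lie between 0 and 0.4, and Rpl10 and Rps12 stand above the rest only when counted alone.

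The genes that work with the members were read from lists. Among other ribosomal components, Rps3a1, which codes for a small subunit protein, had 195 and 213 TPM. Fau, a fusion with a small subunit protein, had 332 and 303 TPM, and Rack1, a scaffold on the small subunit, had 127 and 124 TPM. These genes lay within the members' range, and none of them passed the edgeR test.

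Of 16 other messages known to start with a TOP motif, 0 passed the edgeR test and 14 had a log2 ratio above 0, with a median of 0.16. Their levels ran from 45.4 TPM to 1277 TPM, the latter for Eef1a1, the elongation factor that delivers tRNA. Of 21 ribosome biogenesis genes, 0 passed and 10 were above 0, at a median of -0.05. Their median level was 18.8 TPM. Of 13 genes that control TOP translation, such as Larp1 (47.0 and 42.3 TPM) and Mtor (45.6 and 39.2 TPM), 0 passed and 4 were above 0, at a median of -0.05. Over all genes 778 had an unadjusted p under 0.05, and 2 members did. In none of these 3 lists was a gene discordant 2-fold between the quantifiers.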

How the data were processed

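Members and gene lists were chosen with earlier results of these data known. Tables are on mm10 with GENCODE M21, per the submitters' file notes; which programs made them, and their versions, were not given in the sources used here. Per the file headers, the gene table and a transcript table have RSEM column names and the second transcript table those of kallisto. The authors deposited expected counts (estimated counts), not scaled between libraries, in which shared reads are divided among features. The authors deposited TPM per effective length. The deposited bounds of TPM are a signal-like interval of unstated level; 10 members had a TPM outside their own bounds in both libraries. Transcript values of the second table were summed per gene; 86 genes of the gene table have no transcript there.

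Copies were found with BLAST 2.17.0 (95% identity, 80% of the longest annotated coding sequence). edgeR 4.0.16 (R 4.3.3) was fitted on rounded counts of genes at 1 CPM or more in either library, with TMM scaling, an intercept alone, trended dispersion, residual deviance on 1 degree of freedom and Benjamini-Hochberg adjustment (threshold 0.05; prior count 2). Its p-values measure the spread between 2 libraries. On simulated libraries of 15882 genes it found 4.4% of the 2-fold changes, 61.2% of the 4-fold and 98% of the 8-fold ones. So few libraries allow no exact test over samples to pass 0.05. Depth was 23458117 and 29584307 expected counts.

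Named genes were the 5 highest and 5 lowest members, paralogs with partners, up to 10 members with the largest ratio between quantifiers in the same direction, members passing edgeR, and the 5 with the highest share of transcripts outside the coding class. Some named items are not reported here. Genes beside these (such as Rps6 and Rpsa) were chosen for their roles after their values were seen. Python 3.11.15, pandas 2.3.3 and Biopython 1.88 were used.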

Additional observations from a re-analysis of the deposited data

How the results depend on the processing

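The single member called between the libraries was also called with DESeq2 size factors and without the filter on low counts. It was lost (0 called) with spike-in scaling, with the second quantifier, with pseudogenes named after a member summed to it and with near-identical copies summed, by either quantifier. Its log2 ratio there was 0.73 with spike-ins, where all genes moved by -0.23 at the median (edgeR adjusted p = 0.892), 0.16 with the second quantifier, 0.10 with either sum and 0.16 with copies summed by the second. The members' median log2 ratio was between 0.18 and 0.25 under every setting run except spike-in scaling, where it turned to -0.018. The 9 discordant members became 15 at 1.5-fold, 5 on counts, 11 after subtracting the median of all genes, and 9 to 12 when 1 replicate was left out. With copies summed, 0 were left on TPM and 1 on counts, also with copies at 99% identity alone or without copies inside longer transcripts. These sums, like the protein-coding background, were chosen after seeing the data. The summed level of 16844 TPM (mean; 16317 to 17372 leaving out a replicate) was 18551 TPM by the second quantifier, 13791 TPM on protein-coding transcripts, 33963 TPM rescaled over nuclear protein-coding genes and 22719 TPM with copies. The share of Rpl36al in its pair fell below that of Rpl36a with the second quantifier (35.8%), and the order held in the other 6 pairs. On protein-coding transcripts alone, added after seeing the data, the share of Rpl22l1 fell below that of Rpl22 (10.8%), and the order held in the other 6 pairs. Members with over 50% on transcripts outside the coding class numbered 15 to 17 leaving out a replicate. No paired analysis was possible because there is 1 group. Leaving out a library leaves no test between libraries.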
